A study of Homo sapiens with 2 samples.

Results

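Cluster 3 is a group of 2543 stromal cells, all from the library treated with transforming growth factor beta 1 (TGFB1). It makes up 20.3% of the 12555 cells of that library, and the whole series holds 20656 cells. Members were taken as the TGFB1 cells that the authors' deposited cell table places in cluster 3, and none of the 8101 untreated cells falls there. The cells are commercial human mesenchymal stem cells of adipose origin, a plastic-adherent stromal culture. Both cultures were grown to near confluence and starved overnight, and then 1 received 10 ng/mL TGFB1 for 24 h while the other was left without treatment. Each condition is 1 library of single cells counted by unique molecular identifiers (UMIs, the number of distinct captured transcripts). The levels below therefore describe these libraries, with no replicate check of the treatment and no p-value. The clusters were themselves drawn from the expression of these genes, so every difference between clusters is a description of how they were separated and not a test.

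TGFB1 is a secreted factor that binds a pair of receptor kinases and signals through SMAD transcription factors. In fibroblasts and stromal progenitors it is known for raising matrix, contractile and adhesion genes. Interleukin 11 (IL11) is a cytokine of the interleukin 6 family. It binds its own receptor chain, IL11RA, and the shared chain IL6ST (gp130), which activates JAK kinases and STAT3. TGFB1 is a well-known inducer of IL11 in fibroblasts, and the study asks about IL11 from stromal progenitor cells in melanoma.

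The IL11 gene is on the minus strand, at chr19:55364389-55370463 (GRCh38, GENCODE 29). The 250 bases just before its start are shown because IL11 is the gene that names this state, and because genes of AP-1, a dimer of FOS and JUN proteins, are among those described below. The sequence is from RefSeq (GRCh38.p14, chr19:55370464-55370713, minus strand, 5′ to 3′), with matches to an AP-1 motif and a SMAD box in capitals.
IL11 promoter: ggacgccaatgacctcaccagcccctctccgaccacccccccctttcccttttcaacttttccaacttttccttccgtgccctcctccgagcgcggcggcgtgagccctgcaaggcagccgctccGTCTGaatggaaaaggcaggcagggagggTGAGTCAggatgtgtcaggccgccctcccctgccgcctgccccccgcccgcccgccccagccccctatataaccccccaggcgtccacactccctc
The AP-1 motif searched was TGANTCA, which found 1 match at bases -96 to -90 relative to the start. The SMAD box searched was CAGAC on both strands, which found 1 match at -125 to -121, written on this strand as GTCTG. The motifs do not overlap. Of 35116 promoters, each cut to the same 250 bases, 6.57% hold the AP-1 letters and 38.0% the SMAD box, so a match describes the letters and shows no binding.

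Cluster 3 cells held the most UMIs of the 3 large TGFB1 clusters. They had a median of 21819 UMIs (quartiles 16837 and 27599) and 5158 genes per cell. Cluster 0 with 5303 cells had a median of 12007 UMIs and 3928 genes, and cluster 4 with 2421 cells had 15941 UMIs and 3903 genes. The median mitochondrial share per cell was 2.87% in cluster 3, 2.38% in cluster 0 and 2.08% in cluster 4. Shares of cells with a UMI are therefore also given after each cell was thinned at random to 7500 UMIs, which left out 106 cluster 3 cells, 1663 of cluster 0 and 127 of cluster 4. The 2 libraries share 18 cell barcodes, 5 of them in cluster 3.

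**Figure D1:**
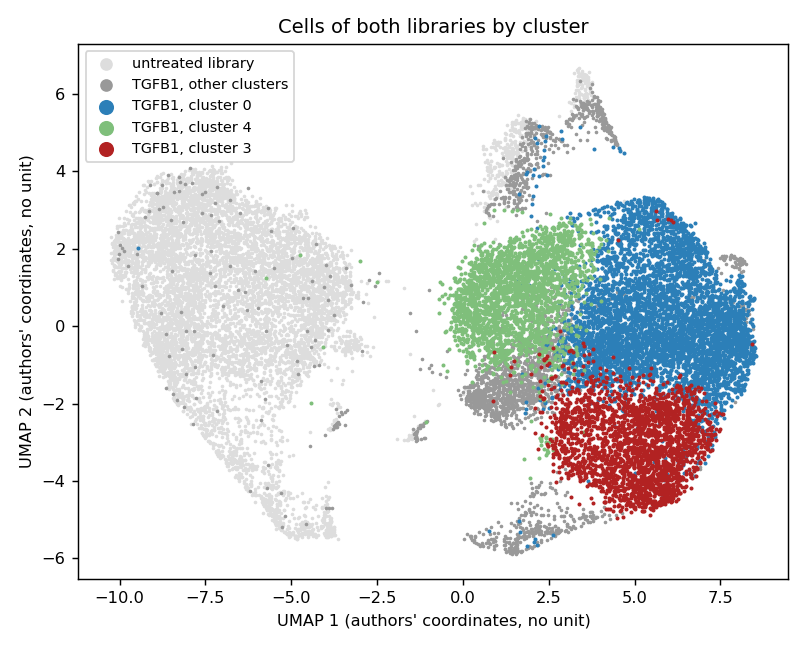
UMAP coordinates of all cells as deposited by the authors (both axes without unit), with each point 1 cell, coloured by library and cluster. Cluster 3 (red, 2543 cells) lies beside clusters 0 and 4 and apart from most untreated cells (light grey).

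IL11 transcripts were abundant in cluster 3, but IL11 alone did not set it apart. Summed over its cells and divided by their UMI total, IL11 reached 183 UMIs per 1e6 UMIs (CPM), with a 95% Poisson interval of 180 to 187 from 10857 UMIs. The level was 160 CPM in cluster 4, 110 CPM in cluster 0 and 3.12 CPM in the untreated library. Cluster 8, a small group of 348 cycling TGFB1 cells, was higher at 231 CPM (221 to 241), so cluster 3 ranked behind it by this level. These intervals cover the counting error of UMIs only, not the spread between cells. The other TGFB1 clusters of at least 100 cells were lower, with cluster 5 at 125 CPM, cluster 9 at 79.0, cluster 7 at 74.1 and cluster 10 at 73.0, and the intervals of the last 3 overlap. Cluster 3 held 36.2% of the TGFB1 library's IL11 UMIs, beside 28.3% of all its UMIs.

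Against clusters 0 and 4 together, at 127 CPM, IL11 in cluster 3 was 1.44-fold higher (exact binomial interval 1.41 to 1.48). All intervals on ratios and shares are 95% and cover counting error only. The ratio was 1.66 over cluster 0 and 1.15 over cluster 4, so the label of a high IL11 state holds against cluster 0 and less so against cluster 4. Neither the pooled value nor that over cluster 4 reaches the 1.5-fold used below to call a gene higher or lower.

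The order of the 3 clusters was the same among cells of like depth above 10000 UMIs. At 15000 to 20000 UMIs per cell, IL11 stood at 197 CPM in cluster 3, 167 in cluster 4 and 91.2 in cluster 0. At 30000 to 50000 UMIs it stood at 180, 170 and 119 CPM. Below that range, at 5000 to 10000 UMIs, cluster 3 had 187 CPM from 91 cells while clusters 0 and 4 were close to each other at 121 and 119 CPM.

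Most cluster 3 cells held at least 1 IL11 UMI. The share was 83.6% (82.1 to 85.1), beside 70.5% in cluster 4 and 61.3% in cluster 0. At 7500 UMIs per cell the shares came to 60.4% (58.5 to 62.4), 52.8% and 48.0%. In cluster 8 the share at that depth was 62.4% (56.8 to 67.7), an interval that overlaps that of cluster 3. In the untreated library the share was 5.55% of cells, or 2.09% after thinning, at a median depth of 19249 UMIs. That is a separate capture, and the part of free IL11 RNA in the droplets of the TGFB1 library was not tested. Cells with 5 or more IL11 UMIs after thinning were 6.03% of cluster 3, 4.58% of cluster 4 and 1.35% of cluster 0. High counts were thus more frequent in clusters 3 and 4 than in cluster 0, and 39.6% of thinned cluster 3 cells showed no IL11 UMI.

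**Figure D2:**
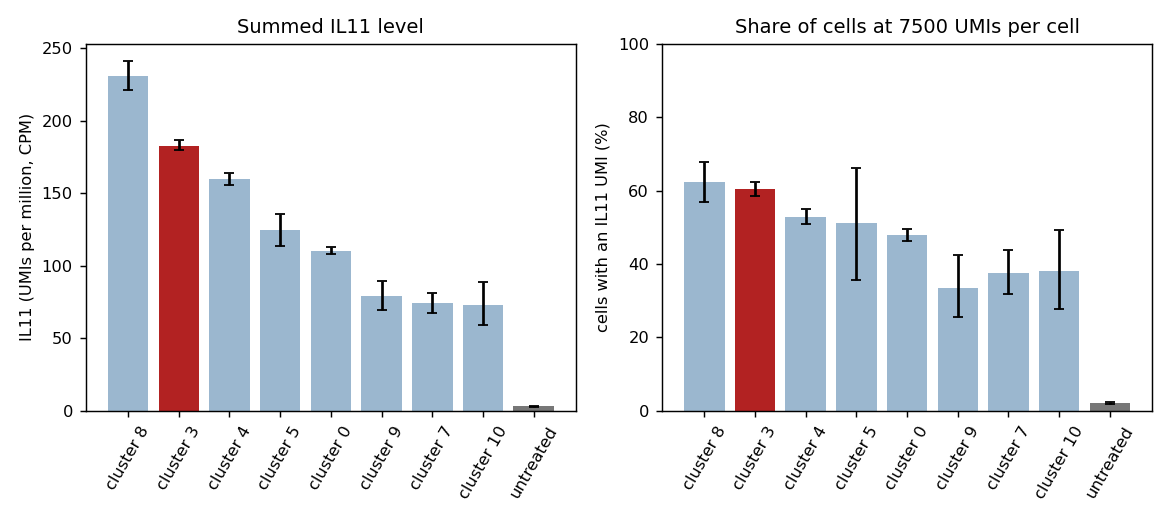
Left, summed IL11 level in CPM (bars from 0, 95% Poisson intervals) in the TGFB1 clusters of at least 100 cells and the untreated library; right, percent of cells with an IL11 UMI at 7500 UMIs per cell (exact binomial intervals). Cluster 3 (red) stands at 183 CPM and 60.4%, behind cluster 8 at 231 CPM and 62.4%. The intervals of these shares overlap.

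The grouping was also run without IL11. When the TGFB1 library was clustered again with IL11 left out, 95.9% of cluster 3 cells fell into 1 new cluster of 2874 cells. Of that new cluster, 84.8% came from cluster 3. With IL11 left out and every cell at 7500 UMIs, 85.3% of the remaining cluster 3 cells fell into 1 new cluster of 2206 cells, 94.2% of them from cluster 3. IL11 in those new clusters was 178 and 181 CPM. Both runs used the same expression data less 1 gene, so this is a description and no independent support for the grouping.

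Of the other interleukin 6 family genes, LIF differed most. Of 19 listed genes, 15 reached 5 CPM in cluster 3 or in clusters 0 and 4. Only LIF was at least 1.5-fold higher in cluster 3 and none was lower, where 4.89% of all 10437 genes measured were higher and 4.36% lower. The list's median log2 ratio was -0.07, beside 0.09 over all genes. LIF, a second gp130 cytokine, stood at 25.8 CPM in cluster 3, 11.1 in cluster 0, 11.0 in cluster 4, 14.7 in cluster 8 and 1.48 in the untreated library. It was 2.33-fold higher than in clusters 0 and 4 (2.17 to 2.51), and 2.33-fold also at 7500 UMIs, where 14.2% of cluster 3 cells had a LIF UMI against 6.61%. LIF thus set cluster 3 apart from clusters 0 and 4 by more than IL11 did. The gap to cluster 8 was smaller at 7500 UMIs. There cluster 8 had 20.1 CPM of LIF, beside 21.6 to 29.1 in the groups within cluster 3 described below.

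The ligands and signalling parts beyond LIF stayed within 1.5-fold. IL6, the founding member, stood at 110 CPM in cluster 3 against 138 and 145 in clusters 0 and 4. CLCF1 (8.77 CPM) and CTF1 (9.14 CPM), both gp130 ligands, lay within 1.5-fold. Among receptors, IL11RA stood at 13.0 CPM in cluster 3, 11.5 in cluster 0 and 16.1 in cluster 4. IL6ST stood at 156 CPM in cluster 3, 210 in cluster 0 and 161 in cluster 4. LIFR, the second chain for LIF, had 9.97 CPM against 16.2 and 8.90, and OSMR 89.5 against 105 and 59.3. No receptor chain thus passed 1.5-fold against clusters 0 and 4 together. JAK1, JAK2, TYK2 and STAT3, which pass the signal on, had ratios between 0.890 and 1.16. SOCS3, a feedback inhibitor and STAT3 target, stood at 3.99 CPM in cluster 3 and at 5.71 and 5.28 in clusters 0 and 4.

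Across all genes, 510 were higher in cluster 3 than in clusters 0 and 4 by 1.5-fold or more, and 455 were lower by that fold. TMM scaling gave 381 and 580 instead, and median-of-ratios scaling 392 and 561. At 7500 UMIs per cell 599 genes (5.74%) were higher and 539 (5.17%) lower. A gene under 5 CPM in cluster 3 or in the reference is measured only through the other side and so differs by selection; counts and medians of lists describe the measured members alone. Of the 510 genes higher, 471 were also higher at 7500 UMIs per cell, and of the 455 lower, 438 were also lower there. The reference clusters differ from each other: 3150 genes (30.4%) were higher in cluster 3 than in cluster 4 and 437 (4.22%) lower, but 371 (3.50%) were higher and 679 (6.41%) lower than in cluster 0. Cluster 4 was also low in nuclear transcripts. MALAT1 stood at 7845 CPM in cluster 4, 16026 in cluster 3 and 21714 in cluster 0, and NEAT1 at 1203, 2863 and 3604 CPM. The fifth of genes with the longest spans (median 189 kb) had a median log2 ratio of 0.90 over cluster 4 and of -0.06 over cluster 0. The part of gene length and nuclear RNA in the ratios to cluster 4 was not tested, and for that reason the values for both clusters are given. Genes past 1.5-fold against each of the clusters numbered 232 higher (2.18%) and 234 lower (2.20%).

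Genes were ranked where cluster 3 or clusters 0 and 4 together reached 20 CPM, which held for 6336 genes. The 15 highest ratios included genes of hyaluronan, sulfation and DNA synthesis. Of these, 13 have a symbol, and in 10 of the 13 cluster 8 was higher still than cluster 3. The share of all genes that were higher in cluster 8 was not counted. Genes under 20 CPM in clusters 0 and 4, such as TK1, PCLAF and CHST8, entered only through cluster 3 and had to be higher. TK1, which makes thymidine monophosphate for DNA synthesis, had the highest ratio, 4.77 (4.30 to 5.29). It stood at 20.4 CPM in cluster 3, 4.21 in cluster 0, 4.44 in cluster 4, 69.3 in cluster 8 and 28.6 in the untreated library. PCLAF, a partner of the replication clamp PCNA, stood at 20.7 CPM in cluster 3 against 6.04 and 4.70, with 149 in cluster 8. Both genes thus lay between the reference clusters and cluster 8.

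HAS2 encodes an enzyme that builds hyaluronan, a large sugar polymer of the matrix. It stood at 174 CPM in cluster 3, 52.6 in cluster 0, 44.0 in cluster 4, 489 in cluster 8 and 66.9 in the untreated library, a ratio of 3.49 (3.38 to 3.60). At 7500 UMIs 47.1% of cluster 3 cells had a HAS2 UMI against 21.8% in clusters 0 and 4. CCBE1, a secreted matrix protein needed for lymphatic growth, stood at 38.9 CPM against 10.2 and 4.42, close to the untreated level of 43.0. HMGA2, a chromatin protein of growing mesenchyme, stood at 73.3 CPM against 32.9 and 11.1, also near the untreated 85.4. For CCBE1 and HMGA2 the TGFB1 cells of cluster 3 were thus nearer to untreated cells than those of clusters 0 and 4 were. COLEC12, a scavenger receptor, lay under the untreated 74.9 CPM in each of these clusters, with 22.7 in cluster 3, 8.52 in cluster 0, 5.69 in cluster 4 and 29.9 in cluster 8.

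CHST8, a sulfotransferase, was nearly absent without TGFB1. It stood at 21.5 CPM in cluster 3, 6.14 in cluster 0, 6.62 in cluster 4 and 0.355 in the untreated library. BAALC stood at 92.7 CPM in cluster 3 against 19.3 and 28.9, with 31.2 in the untreated library and 102 in cluster 8. AK5, an adenylate kinase, stood at 31.3 CPM against 10.4 and 8.26. CDK15, RFX8, LINC01060 and MIR222HG, a host transcript of microRNAs, had ratios between 3.10 and 3.83. For these 4 the ratio to cluster 4 exceeded that to cluster 0, for example 64.0 CPM of MIR222HG in cluster 3 against 25.7 in cluster 0 and 6.36 in cluster 4.

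Of the 15 lowest ratios, 13 belong to genes with a symbol. In all 13 the untreated library was higher than cluster 3. These genes were picked for their low level in cluster 3, and over all genes the median log2 ratio of cluster 3 to the untreated library was -0.07. RARRES2, which encodes the chemoattractant chemerin, stood at 5.46 CPM in cluster 3 against 33.1 in cluster 0, 32.3 in cluster 4 and 40.3 in the untreated library, 6.01-fold lower than in clusters 0 and 4 (5.37 to 6.75). INMT, a methyltransferase, stood at 5.49 CPM against 31.6 and 32.6. C3, the central complement component, stood at 6.99 CPM against 32.3 and 27.8. SOD3, the secreted superoxide dismutase, stood at 29.8 CPM against 106 and 129. These 4 genes lay at nearly the same level in clusters 0 and 4, so the difference does not hang on the choice of reference.

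CEMIP, a protein that drives hyaluronan breakdown, was 3.93-fold lower (3.84 to 4.02). It stood at 133 CPM in cluster 3, 630 in cluster 0, 306 in cluster 4, 188 in cluster 8 and 1737 in the untreated library. BAMBI, a pseudoreceptor that damps TGFB signalling, stood at 9.51 CPM against 35.0 and 28.8. RSPO3, which strengthens Wnt signalling, stood at 9.39 CPM against 46.4 and 32.6, and SFRP4, a secreted Wnt inhibitor, at 7.97 CPM against 41.1 and 19.5. EPAS1 (the hypoxia factor HIF2A), NTN4 (netrin 4), SCRG1 and TPD52L1 were 3.79 to 3.92-fold lower. RASGRF2, an exchange factor for RAS, was lower at 7.26 CPM, with 12.2 CPM in cluster 4 and 37.5 in cluster 0.

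**Figure D3:**
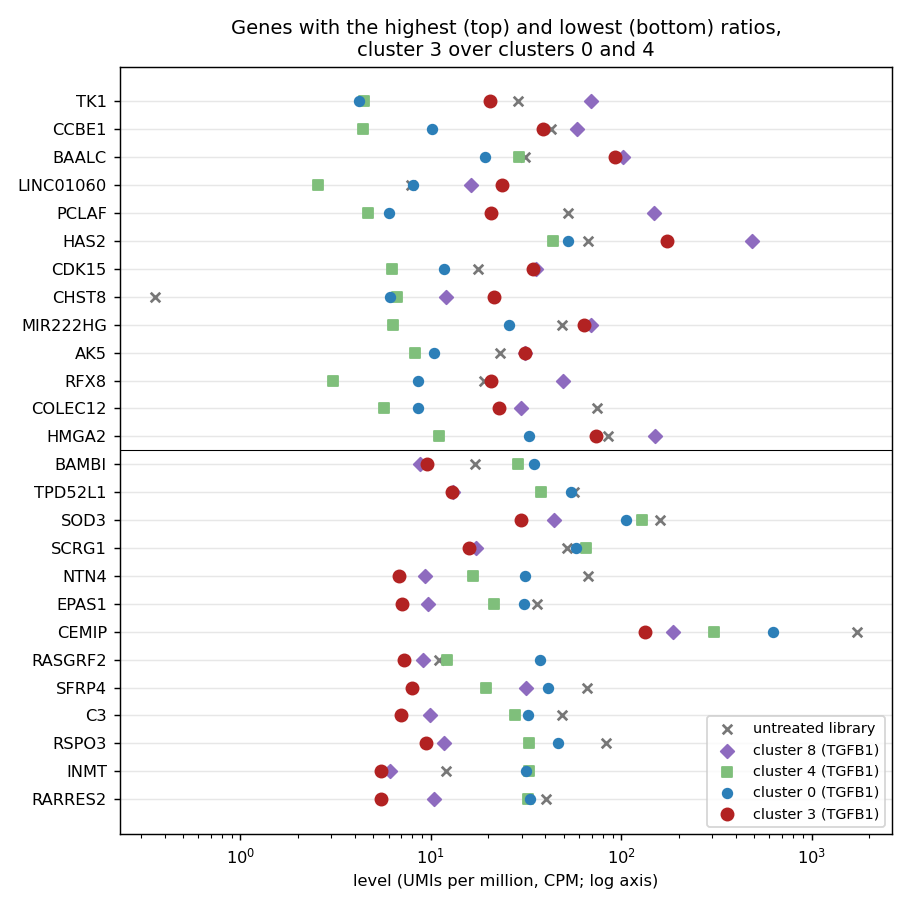
Levels in CPM (log axis) of the 13 named genes with the highest and the 13 with the lowest ratio of cluster 3 over clusters 0 and 4, with 1 marker for each of clusters 3, 0, 4 and 8 and the untreated library. HAS2 runs from 44.0 CPM in cluster 4 to 174 in cluster 3 and 489 in cluster 8, and CEMIP from 133 CPM in cluster 3 to 1737 in the untreated library.

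Nearly all genes listed as SMAD-responsive were higher in cluster 3 than in untreated cells. The list was chosen with earlier results of these data known, so the count is a description and no test. Of 25 SMAD-responsive genes, 24 were at least 1.5-fold higher in cluster 3 than in the untreated library and 0 lower, where 11.1% of 10992 genes were higher and 17.6% lower. The median log2 ratio to the untreated library was 2.29 in cluster 3, 1.84 in cluster 0 and 1.91 in cluster 4; these values share the untreated library, and the medians over all genes were -0.07, -0.07 and -0.34. Against clusters 0 and 4, 4 of the 25 were higher in cluster 3 and 0 lower, with a median of 0.11. Of the 4, 2 were higher by 1.5-fold than in each of these clusters. COL7A1, the anchoring fibril collagen, stood at 22.9 CPM in cluster 3, 10.6 in cluster 0, 10.9 in cluster 4 and 2.75 in the untreated library. TSPAN13, a tetraspanin, stood at 73.8 CPM against 36.7 and 49.6, and 1.09 without treatment. ADAM19, a membrane protease, stood at 224 CPM against 144 and 99.0. KANK4, an adhesion adaptor, stood at 55.9 CPM against 41.2 and 29.2. PMEPA1, a feedback inhibitor of SMAD signalling, went the other way at 118 CPM in cluster 3 against 158 and 159, within 1.5-fold.

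Ligands, receptors and antagonists of the TGFB and bone morphogenetic protein (BMP) families were more often lower than higher. Of 24 TGFB ligands, receptors and activators, 1 was higher (TGFB2) and 5 lower (FST, TGFB3, ACVR2A, LTBP3, FSTL3), beside 4.89% and 4.36% of all genes. The median was -0.33 over cluster 0 and 0.25 over cluster 4, and 3 of the 5 were lower than in each of them. FST, the activin trap follistatin, stood at 43.1 CPM in cluster 3 against 110 and 111. TGFB2, a ligand, stood at 7.03 CPM against 4.81 and 2.21, and TGFB3, another ligand, at 3.70 against 9.22 and 6.53. For ACVR2A, an activin receptor, the ratio to cluster 4 alone was above 1. Among 13 BMP targets and antagonists 6 were lower and 1 higher, and the median was -0.30. It was -0.34 over cluster 0 and -0.16 over cluster 4, and 3 of the 6 were lower than in each of these clusters. ID2, an inhibitor of differentiation factors and a BMP target, stood at 210 CPM against 399 and 378. GREM1, a secreted BMP antagonist, stood at 494 CPM against 943 and 729. GDF6, a BMP-type ligand, was the exception at 10.0 CPM against 3.36 and 3.19, with 0.160 in the untreated library.

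Contractile genes did not separate cluster 3 as a group. Of 21, 1 was higher (TNS1) and 2 lower (MYH10, MYLK), beside 4.89% and 4.36% of all genes. The list's median was -0.02. ACTA2, smooth muscle actin and the usual sign of a myofibroblast, stood at 987 CPM in cluster 3, 1249 in cluster 0, 1885 in cluster 4, 547 in cluster 8 and 202 in the untreated library. It was 1.48-fold lower than in clusters 0 and 4 (1.47 to 1.49). MYH10, a non-muscle myosin chain, stood at 317 CPM against 827 and 502, and MYLK, the myosin light chain kinase, at 188 against 445 and 380. Both lay below the untreated levels of 439 and 226 CPM. TPM1, a tropomyosin, stood at 8194 CPM against 6956 and 8140, with 1457 without treatment. MYH10 and MYLK thus stood lower in cluster 3, and TPM1 at a like level in the 3 clusters.

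Targets of YAP and serum response factor, which respond to tension and actin, included 4 of 21 that were higher (FOSL1, TGFB2, NUAK2, VCL). None was lower, beside shares over all genes of 4.89% higher and 4.36% lower. The list's median was 0.26, or 0.19 over cluster 0 and 0.25 over cluster 4, beside 0.09, 0.01 and 0.24 over all genes. Against each reference cluster, 2 of the 4 were higher. Of 19 integrins and adhesion genes, 1 was higher (KANK4) and 4 lower (ITGA4, ITGA1, ITGA2, ITGA11). The median was -0.32 over cluster 0 and 0.29 over cluster 4, and 1 gene was lower than both, ITGA4. ITGA4, an integrin chain that binds fibronectin, stood at 33.9 CPM against 87.5 and 65.1. ITGA1, a collagen-binding chain, stood at 38.4 CPM against 93.7 and 50.8. For ITGA11, also collagen-binding, cluster 3 was above cluster 4 and below cluster 0.

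Fibrillar matrix genes past 1.5-fold were all lower in cluster 3. Among 33 measured, 12 were lower and 0 higher, where 4.36% of all genes were lower and 4.89% higher. The median was -0.40. Against each reference cluster taken alone, 10 of the 12 were lower. POSTN, the matricellular protein periostin, stood at 53.9 CPM in cluster 3, 170 in cluster 0, 86.6 in cluster 4 and 304 in the untreated library. THBS2, a thrombospondin, stood at 62.8 CPM against 172 and 133. LUM (lumican) and DCN (decorin), small proteoglycans that coat collagen fibrils, stood at 159 CPM against 327 and 357, and at 494 against 868 and 968. The untreated library was higher for both, at 599 and 2010 CPM. ELN (elastin) stood at 542 CPM against 1076 and 1094, and MFAP5, a microfibril glycoprotein, at 332 against 644 and 792. COMP, a cartilage matrix protein that TGFB1 cells hold above the untreated 347 CPM, stood at 553 CPM against 966 and 1155. COL3A1 stood at 1382 CPM against 2473 and 2090. Other members at lower levels in cluster 3 were EFEMP1, COL12A1, FBLN1 and SPARC. COL1A1 and FN1, the main collagen and fibronectin, differed less, at 7661 CPM against 10498 and 9560, and at 12064 against 13188 and 11977.

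Basement membrane genes were also more often lower than higher, where 4.36% of all genes were lower and 4.89% higher. Of 13, 1 was higher (COL7A1) and 5 lower, among them COL15A1 at 6.67 CPM against 21.7 and 17.6, LAMA4 at 84.0 against 231 and 147, and COL4A1 at 36.5 against 83.4 and 61.2. Of 20 collagen-modifying enzymes, LOX alone, a collagen cross-linker, was lower and 0 were higher. Of 18 proteases and inhibitors, 2 were higher (PLAU, ADAM19) and 5 lower, with a median of -0.28. TIMP3, a protease inhibitor bound to matrix, stood at 502 CPM against 1053 and 1085, and ADAMTS1, a proteoglycan-cleaving protease, was 2.68-fold lower. PLAU, the urokinase activator, stood at 11.5 CPM against 5.91 and 6.34. The lower set held proteases and their inhibitors alike.

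Hyaluronan and glycosaminoglycan genes went both ways. Among 24 measured, 7 were higher and 5 lower, beside 4.89% and 4.36% of all genes, and the list's median was 0.04. Besides HAS2 and CEMIP, already described, XYLT1, which starts glycosaminoglycan chains on core proteins, stood at 450 CPM in cluster 3, 265 in cluster 0, 127 in cluster 4 and 38.6 in the untreated library. CHST11, a chondroitin sulfotransferase, stood at 115 CPM against 69.7 and 31.1. SULF1, which removes sulfate from heparan sulfate, stood at 253 CPM against 607 and 326. Cluster 3 thus paired more transcript of a hyaluronan synthase with less of CEMIP in these counts. TNFAIP6, a hyaluronan-binding protein, stood at 75.4 CPM against 115 and 120.

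Of 14 inflammatory fibroblast genes measured, 9 were lower and 2 higher (HAS2 and CXCL12), beside 4.36% and 4.89% of all genes. The list's median was -1.07, or -1.16 over cluster 0 and -0.79 over cluster 4. IL1B, ICAM1 and SAA1 reached 5 CPM only through clusters 0 and 4 and so had to be lower; from 20 CPM the median was -1.03. Against the untreated library 19 members of the list were measured. Their median was -2.06 for cluster 3, beside -0.78 for cluster 0 and -0.75 for cluster 4, which share that library. Members under 5 CPM in cluster 3, IL1B and ICAM1 among them, were measured there only through the untreated library and had to be lower. CCL2, a monocyte chemokine, stood at 40.5 CPM in cluster 3, 117 in cluster 0, 138 in cluster 4, 65.5 in cluster 8 and 82.9 in the untreated library. IL1B stood at 3.94 CPM against 16.4 in both clusters, and its receptor IL1R1 at 52.3 against 122 and 76.3. ICAM1, a leukocyte adhesion molecule, stood at 3.31 CPM against 14.4 and 13.0, and PTGS2, the inducible prostaglandin enzyme, at 8.38 against 27.9 and 15.7. TNFRSF11B, the decoy receptor osteoprotegerin, stood at 151 CPM against 324 and 333. SAA1, an acute phase gene, was 5.84-fold lower (4.66 to 7.40) from 82 UMIs in cluster 3. CXCL12, a chemokine of stromal niches, was higher at 9.09 CPM against 5.38 and 5.14. Of 13 interferon-response genes, 4 were lower (IFIT2, IFITM1, IFITM3, IFIT1) and 0 higher, with a median of -0.33.

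Immediate early genes, which include the AP-1 parts, were higher for 5 of 19 (DUSP5, FOSB, FOSL1, JUN, NR4A1) and lower for 1 (KLF4). The shares over all genes were 4.89% higher and 4.36% lower, and the list's median was 0.26. All 5 were higher against each reference cluster. FOSL1 stood at 17.1 CPM in cluster 3 against 9.82 and 8.47, with 34.2 in cluster 8. JUN stood at 48.7 CPM against 27.8 and 27.5, with 77.3 in cluster 8 and 51.1 in the untreated library. DUSP5, a phosphatase that ERK signalling induces, stood at 10.9 CPM against 4.70 and 4.39. For JUN cluster 3 was close to the untreated library.

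Several cell cycle inhibitors and p53 targets were lower in cluster 3. Of 21 p53 targets and senescence genes, 8 were lower and none was higher, beside 4.36% and 4.89% of all genes. The list's median was -0.37, and 5 of the 8 were lower than in each reference cluster. CDKN1A, the inhibitor p21, stood at 79.3 CPM in cluster 3, 199 in cluster 0, 155 in cluster 4, 69.5 in cluster 8 and 160 in the untreated library. It was 2.32-fold lower than in clusters 0 and 4 (2.25 to 2.40), and 34.8% of cluster 3 cells had a CDKN1A UMI at 7500 UMIs against 62.6%. GDF15, a stress-induced cytokine, stood at 1.57 CPM against 11.9 and 11.0, from 93 UMIs. It reached 5 CPM only through clusters 0 and 4 and so had to be lower. ZMAT3 stood at 56.2 CPM against 126 and 88.0, IGFBP7 at 306 against 590 and 650, and CDKN1C, the inhibitor p57, at 21.4 against 35.2 and 41.4. MDM2, the brake on p53, stood at 64.3 CPM against 118 and 62.8, so it was lower than in cluster 0 but not cluster 4. Against the untreated library, 12 of 23 members were lower and 5 higher, beside 17.6% and 11.1% of all genes. Members under 5 CPM in cluster 3, such as GDF15, were measured there only through the untreated library and had to be lower. The list's median there was -0.81 for cluster 3, 0.12 for cluster 0 and -0.16 for cluster 4. GDF15 is also a target of ATF4, and of 24 genes of the ATF4 response 5 were lower (GDF15, ATF5, TRIB3, STC2, DDIT3) and 0 higher, with a median of -0.37.

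Genes of the cell cycle gave a mixed picture. MKI67 and TOP2A, which mark cycling cells, stood at 1.72 and 1.60 CPM in cluster 3, 2.14 and 3.78 in cluster 0, and 152 and 230 in cluster 8. At 7500 UMIs, 1.97% of cluster 3 cells had a UMI of either gene, beside 3.90% in cluster 0, 1.70% in cluster 4 and 70.8% in cluster 8. Of 26 G2 and M phase genes, 5 reached 5 CPM and 2 of them were higher (BIRC5, PRC1), where 4.89% of all genes were higher. The median of the 5 was 0.30, and 0.77 over cluster 4 alone. All 26 summed to 71.9 CPM in cluster 3, 76.7 in cluster 0 and 38.0 in cluster 4. BIRC5, the mitotic protein survivin, stood at 8.08 CPM against 3.15 and 1.97, and PRC1, a spindle protein, at 9.58 against 6.23 and 3.02. Against the untreated library all 25 measured were lower in cluster 3, with a median of -3.46, where 17.6% of all genes were lower. Members under 5 CPM in cluster 3 were measured there only through the untreated library and so had to be lower. Of 9 S phase genes, TK1 alone was higher and 0 were lower. TK1, PCLAF and BIRC5 were above clusters 0 and 4 in cells that held little MKI67 or TOP2A. TK1 and BIRC5 were under 5 CPM in clusters 0 and 4, so they were measured only through cluster 3 and had to be higher. PCNA went the other way, at 19.7 CPM against 26.4 and 31.1, within 1.5-fold.

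Secreted growth factors went both ways. Among 30 measured, 9 were lower and 7 higher in cluster 3, beside 4.36% and 4.89% of all genes, and the list's median was 0.00. NRG1, an ERBB ligand, stood at 190 CPM in cluster 3, 94.0 in cluster 0, 41.1 in cluster 4 and 40.6 in the untreated library. GAL, the neuropeptide galanin, stood at 71.1 CPM against 23.7 and 44.0, and PDGFC, a platelet-derived growth factor, at 166 against 112 and 47.1. FGF5, GDNF and GDF6 were also higher. Lower were IGF1 at 120 CPM against 460 and 303, IGFBP5, which binds it, at 1118 against 3103 and 2934, and FGF7 at 168 against 301 and 218. IGF1 was 3.39-fold lower (3.31 to 3.48), with a UMI in 39.1% of cluster 3 cells and 78.8% of clusters 0 and 4 at 7500 UMIs.

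Of 23 Wnt pathway genes, 4 were higher (WNT5B, TCF7, ROR2, TCF4) and 3 lower (RSPO3, SFRP4, FZD4). The shares over all genes were 4.89% higher and 4.36% lower, and the list's median was 0.04. WNT5B, a non-canonical ligand, stood at 75.5 CPM against 30.4 and 19.2, with 114 in cluster 8. Of 25 mesenchymal transcription factors, 3 were higher (HMGA2, ZEB1, TCF4) and 5 lower (MKX, ETV1, SOX5, FOXO1, KLF4). ZEB1, a repressor of epithelial genes, stood at 753 CPM in cluster 3, 525 in cluster 0 and 189 in cluster 4. MKX, a tendon factor, stood at 6.34 CPM against 18.6 and 8.98. For SOX5 the ratio to cluster 4 alone was above 1. Of 25 axon guidance and synaptic adhesion genes, 8 were higher and 1 lower (NTN4), but the median was -0.05 over cluster 0 and 1.12 over cluster 4, and 4 of the 8 were higher than both.

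Adipose progenitor genes with a difference were mostly lower. Of 17, 7 were lower, all of them against each reference cluster, and 1 was higher (CD248). The shares over all genes were 4.36% lower and 4.89% higher, and the list's median was -0.41. DPP4, a surface enzyme of early adipose progenitors, stood at 32.5 CPM in cluster 3, 89.9 in cluster 0, 75.2 in cluster 4 and 206 in the untreated library. CD55, a complement regulator, stood at 107 CPM against 198 and 190. PI16, another progenitor gene, stood at 78.0 CPM against 60.6 and 90.1, within 1.5-fold. Of 13 genes of mesenchymal stromal identity, 2 were higher (NES, S100A4) and 0 lower, with a median of 0.20. S100A4, a calcium-binding fibroblast protein, stood at 1712 CPM against 732 and 1409. FABP5, a fatty acid carrier, stood at 60.9 CPM against 21.0 and 35.4, and G0S2, a lipase inhibitor, at 5.24 against 11.6 and 12.6.

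Of 29 glycolysis and hypoxia genes, 4 were higher (PFKFB4, NDRG1, PFKP, CA12) and 1 lower (ANKRD37), beside 4.89% and 4.36% of all genes. Their median was 0.09, the same as over all genes. PFKP, a glycolytic enzyme, stood at 242 CPM against 139 and 160. Of 24 genes for folding and secretion in the endoplasmic reticulum, 1 was higher (CREB3L2) and 0 lower, with a median of 0.25. None of 28 oxidative phosphorylation genes and none of 34 ribosomal protein genes passed 1.5-fold in either direction.

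**Figure D4:**
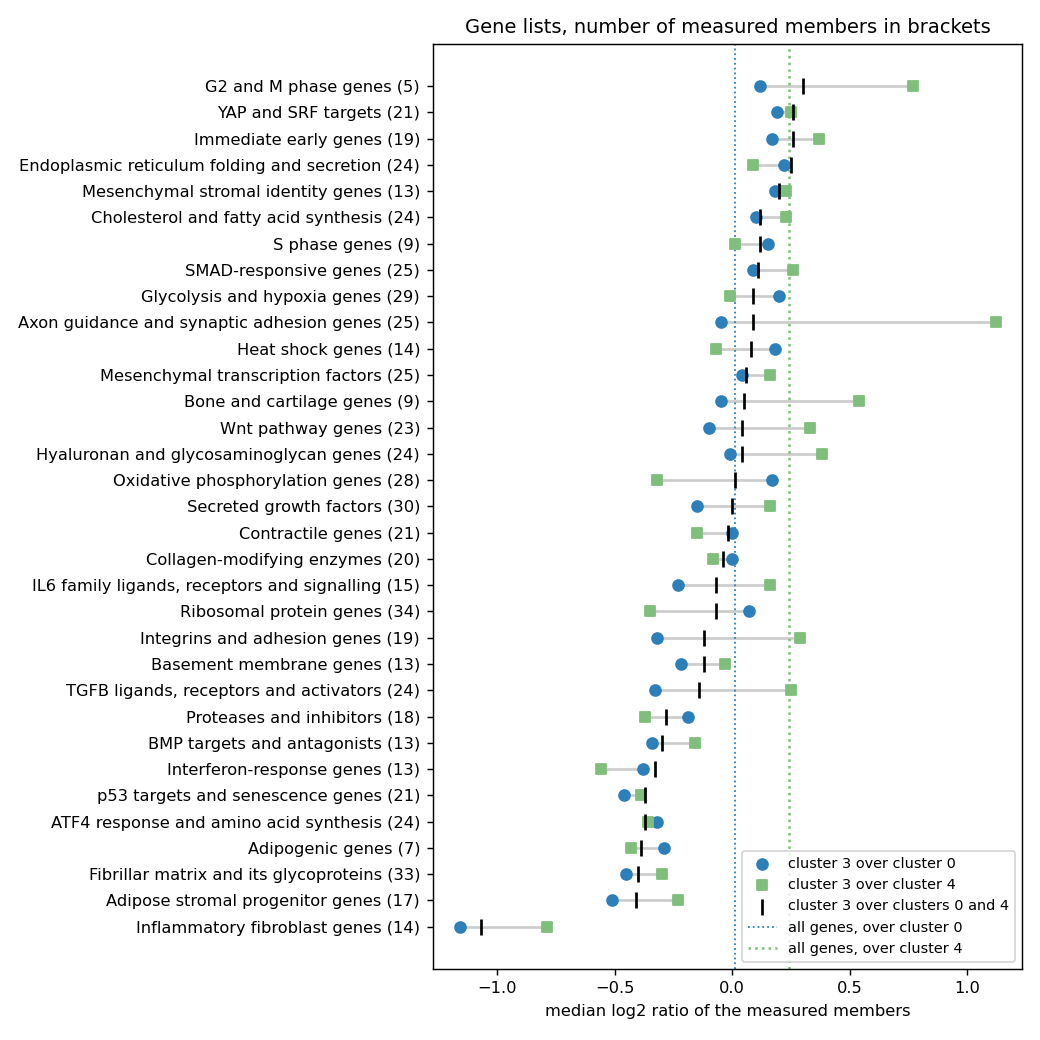
Median log2 ratio of each gene list for cluster 3 over cluster 0 (circles), over cluster 4 (squares) and over both together (ticks), with the number of measured members in brackets; dotted lines give the medians over all genes. Inflammatory genes lie at the low end with a median of -1.07 over both, and axon guidance genes show the widest gap between the references, -0.05 against 1.12.

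Markers of other cell types gave no second identity for cluster 3. Of 12 stromal markers 11 were measured and none was at 0 UMIs. LUM, DCN and COL3A1 were lower and none was higher, with a median of -0.37 and a summed level of 18481 CPM in cluster 3, 26190 in cluster 0 and 24209 in cluster 4. Of 16 immune markers 9 were at 0, among them CD3D, TYROBP and LYZ, and their sum was 19.9 CPM in cluster 3, 17.4 in cluster 0 and 24.3 in cluster 4. Of 13 endothelial markers CDH5, KDR, CLDN5 and PLVAP were at 0, and the sum was 14.0, 25.3 and 18.0 CPM. Of 10 adipocyte markers ADIPOQ, PLIN1, LPL and CIDEC were at 0, and the sum was 27.9, 39.4 and 48.0 CPM. A count of 0 allows up to 3 UMIs, or 0.0507 CPM in cluster 3. Of 16 pericyte and smooth muscle markers, COX4I2 was at 0, and SYNPO2 was lower at 137 CPM against 333 and 272; the sum was 720, 1047 and 1038 CPM. Of 11 epithelial markers KRT5, KRT14 and ESRP1 were at 0, and KRT18, which stromal cells also express, stood at 32.5 CPM against 84.7 and 119. For 11 neural and 8 mesothelial markers the sums were 131 and 226 CPM in cluster 3, 89.1 and 161 in cluster 0, and 117 and 253 in cluster 4. BNC1, a mesothelial marker, was higher at 5.29 CPM against 3.02 and 3.05. It reached 5 CPM only through cluster 3 and so had to be higher. The mesothelial markers MSLN, UPK3B, WT1 and ITLN1 were at 0.

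Cells of cluster 3 were also divided by whether they held an IL11 UMI. At 7500 UMIs, 1473 cells had one and 964 had none, with median depths before thinning of 22218 and 22275 UMIs. The mean was 1.39 IL11 UMIs per cell at that depth, so chance in sampling decides for many cells on which side they fall, which limits the size of the differences. In the IL11-positive cells 48 of 10361 genes (0.463%) passed 1.5-fold upward and 87 (0.840%) downward. Among genes at 20 CPM or more on either side, KRT81, a keratin, had the highest ratio, at 20.1 CPM with and 11.1 without IL11. It was followed by C11orf96 at 34.8 and 21.9 CPM and CHMP1B, a membrane-scission protein, at 59.8 and 40.7. The other 7 of the top 10 were RGS3, NR4A1, AK4, CDH4, DYNLL2, KANK4 and RRP15, with ratios of 1.36 to 1.46. LIF ranked 17 with 27.4 and 20.9 CPM, a ratio of 1.31 (1.08 to 1.61). The lowest were IL1RAPL1, HAPLN1, PRKCA-AS1, LINC00963, MLH3, CWC25, RGMB, CAMSAP1, HIVEP1 and SVEP1, where IL1RAPL1 was 1.60-fold lower. Because the extremes of 10361 genes are picked here, the intervals of single genes are too narrow for that choice. No list had more than 1 member past 1.5-fold.

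Cluster 3 was not uniform. Clustered alone at 7500 UMIs without IL11, it split into group 0 of 1088 cells, group 1 of 438 cells and group 2 of 911 cells. Groups 0 and 2 had like depth, with medians of 23923 and 23125 UMIs, and group 1 less, at 16813. IL11 stood at 191, 197 and 171 CPM, and 63.3% (60.4 to 66.2), 60.7% (56.0 to 65.3) and 56.9% (53.6 to 60.1) of cells had an IL11 UMI. LIF stood at 21.6, 24.0 and 29.1 CPM. The share in group 0 thus lay above that in group 2, with intervals that do not overlap, and IL11 was present in all 3 groups.

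ACTA2 stood at 1340 CPM in group 0, 950 in group 1 and 578 in group 2, where clusters 0 and 4 at the same depth had 1217 and 1898. COMP stood at 737, 484 and 393 CPM and KRT18 at 51.2, 20.1 and 11.1. HAS2 ran the other way with 78.2, 252 and 273 CPM, beside 49.5 and 42.2 in clusters 0 and 4. HMGA2 stood at 36.4, 64.8 and 118 CPM, CCBE1 at 19.5, 32.6 and 64.0, and PDGFC at 106, 130 and 244. Group 0 was thus nearer to clusters 0 and 4 in these genes, which were picked from those that define the groups. Other such genes differed. NPPB stood at 52.0, 19.5 and 10.1 CPM in the groups, beside 10.8 in cluster 0 and 15.8 in cluster 4. IL1RAPL1 stood at 26.3, 33.8 and 84.0 CPM, beside 69.2 in cluster 0 and 15.4 in cluster 4. CDKN1A was low in all 3 groups at 78.9, 64.5 and 78.4 CPM, beside 206 and 158 in clusters 0 and 4. TK1 was above the reference clusters in all 3, at 12.3, 29.8 and 32.2 CPM beside 4.47 and 4.71. In group 1 the nuclear transcript TALAM1 was at 108 CPM, beside 450 and 434 in groups 0 and 2, and ribosomal protein genes summed to 83214 CPM beside 71988 and 65689. The part of RNA content in group 1 was not tested.

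**Figure D5:**
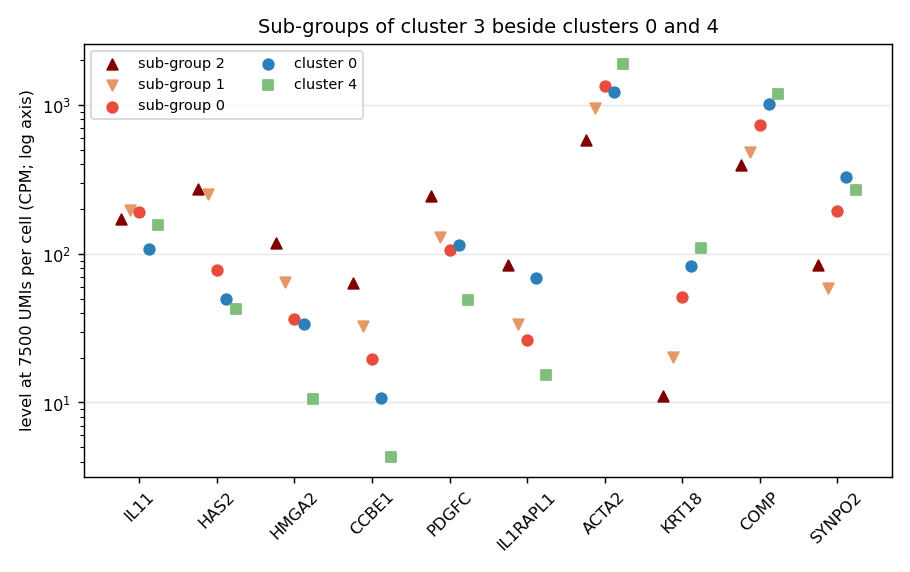
Levels in CPM at 7500 UMIs per cell (log axis) of 10 genes in the 3 groups within cluster 3 (red and orange) and in clusters 0 (blue) and 4 (green). IL11 lies between 171 and 197 CPM in the groups, while ACTA2 goes from 1340 CPM in group 0 to 578 in group 2 and HAS2 goes from 78.2 to 273.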

How the data were processed

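Single-cell transcriptomes of the untreated and the TGFB1 library were used. The authors deposited a matrix of unnormalized UMI counts (38606 genes, 20656 cells). Their deposited cell table holds UMI and gene counts, the mitochondrial percent, the cluster number and UMAP coordinates, which are scores without unit. Sums over the matrix equalled the UMI totals of that table for each of its 20656 cells. No cell has fewer than 502 genes or more than 5% mitochondrial UMIs, and 31 other columns were not used. The submitters' processing notes list GRCh38 as the build and, as tools, Seurat and Cell Ranger 9.0.1, with no roles. Of the gene names, 12962 are Ensembl identifiers and 32312 were found in GENCODE 29, used for positions. Doublets were not called, so any in the deposited cells were kept.

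UMIs were summed over the cells of a cluster and divided by their total (CPM). Intervals of 95% are exact: conditional binomial (Clopper-Pearson) for ratios, Poisson for levels, binomial for shares. No test was possible with 1 library per condition. A gene counted as measured from 5 CPM in either side, and as higher or lower from 1.5-fold. Cells were thinned to 7500 UMIs without replacement, leaving out shallower cells. Re-clustering used scanpy 1.11.5 (2000 variable genes, 30 components, 15 neighbours, Leiden resolution 0.4). The steps were tested on simulated data.

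The members and the 43 gene lists were chosen with earlier results of these data known. Named genes were the 15 highest and 15 lowest ratios at 20 CPM or more in either side, and all measured interleukin 6 family genes. Also named were up to 4 genes of each other list with the largest ratios, and the 10 highest and 10 lowest ratios by IL11 UMI within cluster 3. A few genes that this rule names are not reported here. Other genes, and those of the groups within cluster 3, were named after their values were seen. Alternatives were edgeR 4.0.16 TMM factors, median-of-ratios factors, equal weight per cell, thinning to 5000 or 10000 UMIs, minima of 1 or 20 CPM, no cells with MKI67 or TOP2A UMIs, cells between the UMI quartiles of cluster 3, and other reference cells. Other tools were R 4.3.3, matplotlib 3.10.9, Python 3.11.15, scipy 1.17.1, numpy 2.4.6 and pandas 2.3.3.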

Additional observations from a re-analysis of the deposited data

How the results depend on the processing

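The IL11 ratio of cluster 3 over clusters 0 and 4, 1.44, was above 1 under each of the 13 alternatives. It moved past its counting interval to 1.37 with TMM and with median-of-ratios factors, to 1.5 among cells between the UMI quartiles of cluster 3, to 1.66 over cluster 0 alone and to 1.15 over cluster 4 alone. The 510 genes higher became 903 from 1 CPM, 297 from 20 CPM, 872 among cells between the quartiles and 3150 over cluster 4 alone. The 455 genes lower became 910 from 1 CPM and 236 from 20 CPM. The share of cluster 3 cells with an IL11 UMI, 83.6%, was 49.7%, 60.4% and 67.9% at 5000, 7500 and 10000 UMIs per cell, since fewer UMIs were counted. Of the named genes past 1.5-fold, 6 changed direction. Over cluster 4 alone the log2 ratio was 0.29 for ACVR2A, 0.57 for SOX5, 0.15 for ITGA11 and 0.16 for the endothelial marker ERG. Over all other TGFB1 cells, which include cycling cluster 8, it was -0.78 for PRC1 and -0.51 for BIRC5. Apart from these fewer UMIs and reference cells, the cause was not tested. Of the list medians, 467 values stayed within 0.1 of the main one and 89 did not, 27 of these over cluster 4 alone and 17 over cluster 0 alone. Clustering again without IL11 gave groups of 2874 cells, or 2206 at 7500 UMIs, in place of 2543; the second was chosen after seeing the data. No paired analysis was possible because each condition is 1 library with no replicate number. Depth limits genes of few UMIs, and no alternative replaces a second library.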
